A study of Homo sapiens with 10 samples.

Results

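The enzymes described here make, convert or clear steroid hormones, or bear the family name of those that do. They were taken as every probe set that the array annotation gives to exactly 1 gene, where that gene is HSD17B1, HSD17B4, HSD17B7, HSD17B8, HSD17B10, HSD17B11, HSD17B12, SRD5A1, AKR1C3 or CYP1B1. That gave 20 probe sets for the 10 genes, out of 41091 single-gene probe sets for 19775 genes. Of these 20, 16 lay above the array median on at least 3 arrays and were tested, with at least 1 for each of the 10 genes, and 4 were too dim. Expression was read on Affymetrix HG-U133 Plus 2.0 arrays from RWPE-1 cells, an immortalized human prostate epithelial line that forms no tumours. MSCV retroviral vectors were used to infect the cells, stable clones were selected and grown in normal medium, and every group carried the bacterial biotin ligase BirA. The groups were cells labelled as carrying BirA and ERG (3 arrays), cells carrying BirA and ETV1 (4 arrays) and control cells carrying BirA alone (3 arrays). ERG and ETV1 are ETS-family transcription factors that gene fusions switch on in prostate cancer. The design text speaks of 3 biological replicates, whereas ETV1 cells have 4 arrays. The labels do not say whether replicates came from separate clones or cultures, so p-values cover only how far these arrays spread, which may be technical. In bulk RNA, fewer cells that express a gene and less RNA per cell cannot be told apart.

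Androgens and estrogens are switched on and off at carbon 17 of the steroid, where a hydroxyl group makes a strong hormone and a ketone a weak one. HSD17B1 and AKR1C3 drive the reduction to the strong form, SRD5A1 turns testosterone into dihydrotestosterone, and CYP1B1 hydroxylates estrogens to catechols. Several enzymes that carry the HSD17B name work mainly elsewhere, on fatty acids in peroxisomes or the endoplasmic reticulum, on sterols, or inside mitochondria. In prostate epithelium the local balance of these enzymes sets how much active androgen a cell meets.

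Brightness and the ACTB ratio set the 3 arrays labelled ERG apart. The median probe set read 48.45 to 52.6 there, against 70.9 to 75.5 on the ETV1 arrays and 71.35 to 73.4 on the control arrays. Their Spearman correlation with control arrays was 0.766 to 0.811 across probe sets, against 0.956 to 0.969 between ETV1 and control arrays. For ACTB, the signal at the 3 prime end over that at the 5 prime end was 2.75 to 3.07 in ERG-labelled cells, 1.24 to 1.30 in ETV1 cells and 1.35 to 1.40 in control cells. The same ratio for GAPDH was 0.946 to 1.045, 0.994 to 1.05 and 0.893 to 0.931 in these groups, so here ERG-labelled and ETV1 cells overlapped and control cells lay lowest. Of 5 ETV1 probe sets 4 were tested, and 3 of these were higher in ETV1 cells than in control cells. The single tested ERG probe set read 9.80, 7.70 and 10.8 on the arrays labelled ERG, against 191, 183 and 185 on the control arrays, so the factor's own gene did not bear out that label. Another, below the filter, read 25.7 to 49.95 there and at most 20.2 on any other array. Directions drawn from the arrays labelled ERG carry this limit throughout. The basal markers KRT5, KRT14 and KRT15 summed to 20766 to 22513 on the arrays labelled ERG, 16831 to 19240 on ETV1 and 13466 to 14419 on control arrays. The general epithelial markers KRT8, KRT18, KRT19, CDH1 and EPCAM summed to 20996 to 22238 on the arrays labelled ERG, 11117 to 14096 on ETV1 and 14128 to 18018 on control arrays. Within these lists KRT14 (0.41), KRT15 (1.05) and KRT19 (0.74) were higher and KRT18 (-0.57) and EPCAM (-0.89) lower in ETV1 than in control cells on the log2 scale. Against control, KRT5 (1.11), KRT8 (1.04), KRT19 (0.51) and EPCAM (0.98) were higher on the arrays labelled ERG. KRT14, KRT15, KRT18 and CDH1 did not pass there. On control arrays the sums for other cell types came largely from KLK3, COL1A1, PECAM1, CD3E and CHGA. On the arrays labelled ERG, COL1A2 (13.5 against 9.85), CD14 (29.7 against 18.9) and SYP (9.88 against 6.75) averaged higher than on control arrays. These were below the filter, and the other markers of those types averaged lower. Markers of other cell types summed to less on the arrays labelled ERG. Those of luminal prostate cells (KLK3, KLK2, TMPRSS2, ACP3; 3 tested) summed to 189 to 224, against 746 to 831 on ETV1 and 804 to 955 on control arrays. The 5 fibroblast markers (COL1A1, COL1A2, DCN, LUM, PDGFRA; 2 tested) summed to an intensity of 200.2 to 299, against 1056 to 1094 on ETV1 and 907 to 1159 on control arrays. The 4 endothelial markers (PECAM1, VWF, CDH5, KDR; 2 tested) summed to 177 to 207, against 1329 to 1492 on ETV1 and 1444 to 1653 on control arrays. The 3 leukocyte markers with a probe set of their own (PTPRC, CD3E, CD14; 1 tested) summed to 58.3 to 106, against 213 to 234 on ETV1 and 202 to 280 on control arrays. The 3 neuroendocrine markers (CHGA, SYP, INSM1; 1 tested) summed to 52.2 to 70.5, against 368 to 461 on ETV1 and 300.4 to 352 on control arrays. None of these markers was listed at 0, and the part of these differences in the results was not tested.

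In ETV1 cells the steroid-converting enzymes split into 1 gene that rose, 1 that fell and 8 that did not pass. CYP1B1, the cytochrome that makes catechol estrogens, was higher on every ETV1 array than on any control array in each of its probe sets. HSD17B10, a mitochondrial dehydrogenase of branched-chain fatty acids and steroids that is also a subunit of mitochondrial RNase P, was lower on every ETV1 array. Of the 16 tested probe sets, 3 were higher and 1 was lower at a Benjamini-Hochberg adjusted p under 0.05 in limma. Over all 25969 tested probe sets 23.5% passed in either direction, 10.4% higher and 13.1% lower, so the count of members lies near the background. The median log2 difference of the 16 was -0.03, as it was over all tested probe sets (-0.03).

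The CYP1B1 probe set 202436_s_at read 864, 874, 763 and 1042 on the ETV1 arrays, against 636, 572 and 486 on the control arrays. No ETV1 array reached down to the highest control array. On the log2(intensity + 16) scale, on which all fold changes and their standard errors are given, the difference was 0.63 (SE 0.16, adjusted p = 0.0083). The neighbouring probe set 202435_s_at averaged 629 ± 48.2 (SD, n = 4) in ETV1 cells and 370 ± 42.1 (n = 3) in control cells, a log2 fold change of 0.74 (SE 0.15, adjusted p = 0.0024). For 202437_s_at the means were 579 ± 67.7 in ETV1 cells and 319 ± 64.4 in control cells, a log2 fold change of 0.84 (SE 0.18, adjusted p = 0.0025). Replicate D was the highest ETV1 array for all 3 of these, and without it they still passed. The dimmest CYP1B1 probe set, 202434_s_at, was below the filter and read 29.96, 46.0, 49.9 and 53.1 on the ETV1 arrays, against 11.8, 25.2 and 27.8 on the control arrays. Tested without a filter, it differed by 0.70 (SE 0.20, adjusted p = 0.036). All 4 CYP1B1 probe sets thus ran the same way, although they read 1 transcript pool and are not independent replicates. The gene lies on chromosome 2, from 38067509 to 38076151 of GRCh38.p14.

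HSD17B10 was read by 1 probe set, 202282_at. It gave 672, 815, 724 and 658 on the ETV1 arrays, against 1456, 1245 and 968 on the control arrays. Every ETV1 array lay below the lowest control array, and the log2 fold change was -0.74 (SE 0.15, adjusted p = 0.0023). Its ratio of means was 0.587. Leaving out any 1 array kept the call, with log2 fold changes of -0.90 to -0.61. The other subunits of mitochondrial RNase P, the complex that cuts the 5 prime ends of mitochondrial tRNAs, are TRMT10C and PRORP. TRMT10C, the methyltransferase subunit, averaged 903 ± 26.1 (n = 4) in ETV1 cells and 1407 ± 201 (n = 3) in control cells, a log2 fold change of -0.62 (SE 0.14, adjusted p = 0.0045). PRORP, the nuclease subunit, averaged 43.0 ± 8.66 in ETV1 cells and 53.8 ± 15.9 in control cells, below the array median on every array of both groups, and did not pass (adjusted p = 0.38).

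Neither reductase that forms active androgen passed in ETV1 cells. AKR1C3, which turns androstenedione into testosterone, read 132.7, 115, 136 and 311 on the ETV1 arrays, against 185, 150 and 118 on the control arrays. Replicate D alone lay above the control range, and the other 3 ETV1 arrays lay within or below it. The log2 fold change was 0.10 (SE 0.25, adjusted p = 0.83), and -0.20 without replicate D (adjusted p = 0.47). SRD5A1 was read by 3 tested probe sets, whose log2 fold changes were -0.04 (SE 0.15) for 204675_at, -0.00 (SE 0.16) for 211056_s_at and -0.10 (SE 0.18) for 210959_s_at, with adjusted p of 0.74 to 0.99. Here too replicate D was the highest ETV1 array for all 3, at 692, 389 and 335, above the highest control array in each.

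The remaining HSD17B genes did not pass in ETV1 cells. HSD17B1, which reduces estrone to estradiol, was lower on every ETV1 array with 205829_at, at 114, 95.2, 108 and 51.8, against 169, 143 and 151 on the control arrays. Its log2 fold change of -0.70 (SE 0.27) had an adjusted p of 0.069, and its other probe set, 228595_at, differed by 0.22 (SE 0.15, adjusted p = 0.33). With ETV1 and control arrays fitted alone, 205829_at passed at an adjusted p of 0.026, as it did without ERG-labelled replicate B (0.042) or C (0.014). HSD17B4, the bifunctional enzyme of peroxisomal beta-oxidation, averaged 751 ± 12.8 in ETV1 cells and 961 ± 196 in control cells, a log2 fold change of -0.33 (SE 0.15, adjusted p = 0.12). Control replicate C was the lowest control array for 14 of the 16 probe sets, and without it HSD17B4 differed by -0.485 (adjusted p = 0.019). HSD17B11, HSD17B12, HSD17B7 and HSD17B8 differed by -0.27 to 0.27, with adjusted p of 0.22 to 0.96.

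**Figure D1:**
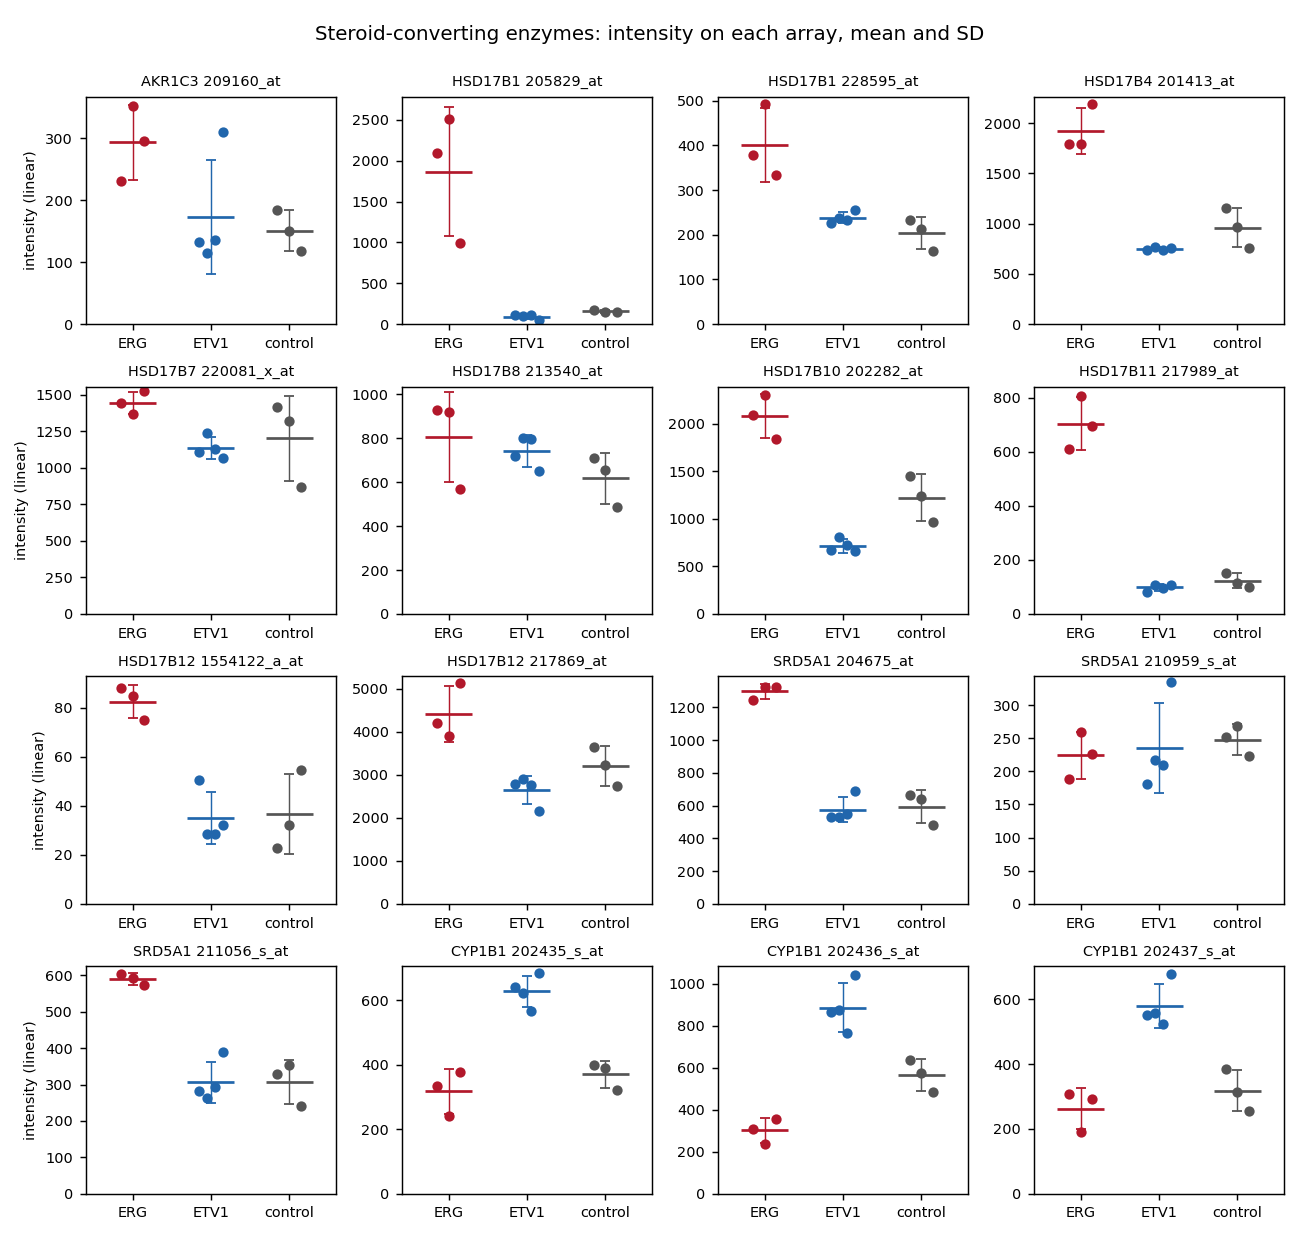
Intensity (linear, y axis) of the 16 tested probe sets on each array, in ERG-labelled (red), ETV1 (blue) and control (grey) cells. Points are arrays, horizontal lines are means and bars are SD (n = 3, 4 and 3); CYP1B1 is highest on the ETV1 arrays in all 3 panels, whereas HSD17B1 205829_at and HSD17B11 are highest on the arrays labelled ERG.

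On the arrays labelled ERG, 10 of the 16 probe sets were higher than on control arrays, 1 was lower and 5 did not pass. Most probe sets of the whole array moved as well, with 78.4% passing in either direction, 43.3% higher and 35.1% lower. The share of members called in either direction, 11 of 16, was thus no larger than the background. The median log2 difference was 0.83 over the 16, against 0.17 over all tested probe sets. Of the 16, 14 also passed a filter at the 75th percentile, and the median over all probe sets passing that filter was 0.43. HSD17B1 and HSD17B11 showed the largest rises among the 16. CYP1B1 was the single gene with a call to the lower side. HSD17B12 1554122_a_at, 1 of the 10, passed the filter only through the arrays labelled ERG, which favours a higher reading there. Its call is a description.

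HSD17B1 read 2099, 2515 and 992 with 205829_at on the arrays labelled ERG, against 169, 143 and 151 on the control arrays. All 3 arrays labelled ERG lay above every other array, although they spread widely among themselves. The log2 fold change was 3.37 (SE 0.28, adjusted p = 2.3e-08) and the ratio of means 12.1. Its other probe set, 228595_at, gave a smaller difference, with 379, 493 and 333 on the arrays labelled ERG and 234, 212 and 165 on the control arrays, with a log2 fold change of 0.92 (SE 0.16, adjusted p = 8.4e-05). Both probe sets were lowest in replicate C among the arrays labelled ERG. HSD17B1 lies on chromosome 17, where RefSeq also lists the pseudogene HSD17B1P1, so signal of the copy cannot be separated from that of the gene here.

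HSD17B11, which oxidises the 17-hydroxyl group of androgen metabolites and sits on lipid droplets, read 611, 805 and 696 on the arrays labelled ERG, against 153, 116 and 100.01 on the control arrays. The groups did not overlap, and the log2 fold change was 2.38 (SE 0.17, adjusted p = 3e-09). HSD17B4 averaged 1926 ± 231 (n = 3) in ERG-labelled cells and 961 ± 196 (n = 3) in control cells, a log2 fold change of 1.004 (SE 0.16, adjusted p = 2.3e-05). A second HSD17B4 probe set, 1563696_at, stayed between 4.74 and 24.1 on all 10 arrays and was below the filter. After quantile normalization the rise of HSD17B4 was 0.45 (adjusted p = 0.0018).

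SRD5A1 and AKR1C3 were higher on the arrays labelled ERG, but for SRD5A1 not in every probe set. SRD5A1 read 1243, 1324 and 1326 with 204675_at, against 662, 641 and 481 on the control arrays, a log2 fold change of 1.12 (SE 0.16, adjusted p = 6.7e-06), and of 0.67 after quantile normalization (adjusted p = 0.00086). With 211056_s_at it averaged 590 ± 16.2 in ERG-labelled cells and 308 ± 59.7 in control cells, a log2 fold change of 0.92 (SE 0.17, adjusted p = 0.00011). The third probe set, 210959_s_at, did not pass, with 188, 259 and 226 on the arrays labelled ERG, against 252, 268 and 223 on the control arrays, and a log2 fold change of -0.14 (SE 0.19, adjusted p = 0.5). AKR1C3 read 232, 353 and 296 on the arrays labelled ERG, above every control array at 185, 150 and 118. Its log2 fold change was 0.89 (SE 0.27, adjusted p = 0.007), and without control replicate C it was 0.74 and did not pass (adjusted p = 0.052).

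The calls of HSD17B10 and HSD17B12 depended on how the arrays were scaled. HSD17B10 gave 2097, 2301 and 1845 on the arrays labelled ERG, against 1456, 1245 and 968 on the control arrays, a log2 fold change of 0.77 (SE 0.16, adjusted p = 0.00041). After quantile normalization between arrays it was 0.20 and did not pass (adjusted p = 0.13). That scaling moved the median of all tested probe sets from 0.17 to 0.05. HSD17B12, the ketoacyl reductase of very long chain fatty acid elongation, averaged 4412 ± 645 with 217869_at in ERG-labelled cells and 3204 ± 464 in control cells, a log2 fold change of 0.46 (SE 0.16, adjusted p = 0.017), but after quantile normalization the difference was -0.17 (adjusted p = 0.24). Without control replicate C or without ERG-labelled replicate C the deposited values did not pass either (0.35 in each case, adjusted p of at most 0.075). The probe set 1554122_a_at of the same gene lay above the array median only on the arrays labelled ERG, and its difference of 0.95 is therefore given as a description. Its values were 88.0, 84.9 and 74.98 on the arrays labelled ERG, against 22.9, 32.4 and 54.8 on the control arrays. The other HSD17B12 probe sets were below the filter. Tested without it, 1554121_at read 34.4, 38.6 and 34.7, against 6.12, 18.6 and 13.3 on the control arrays, a difference of 0.88 (SE 0.22, adjusted p = 0.0034). The last, 1559518_at, ranged from 11.3 to 12.4 in ERG-labelled cells and from 13.5 to 23.25 in control cells and did not pass (-0.23, adjusted p = 0.41).

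CYP1B1 was lower on the arrays labelled ERG with 202436_s_at, at 309, 239 and 357, against 636, 572 and 486 on the control arrays, a log2 fold change of -0.88 (SE 0.17, adjusted p = 0.00017). With 202435_s_at and 202437_s_at the groups overlapped and the differences of -0.22 (SE 0.16) and -0.27 (SE 0.19) did not pass, with adjusted p of 0.22 and 0.19. The dim probe set 202434_s_at read 6.53, 10.97 and 2.48, against 11.8, 25.2 and 27.8 on the control arrays, and differed by -0.72 without the filter (SE 0.21, adjusted p = 0.0092). HSD17B7, a reductase of cholesterol and estrogen synthesis, and HSD17B8, a mitochondrial ketoacyl reductase, did not pass at 0.29 (SE 0.17, adjusted p = 0.12) and 0.36 (SE 0.19, adjusted p = 0.098). HSD17B8 read 929, 918 and 570 on the arrays labelled ERG, and without replicate C of these its difference was 0.58 and passed (adjusted p = 0.0057). Without control replicate A, HSD17B7 differed by 0.43 and passed (adjusted p = 0.039). HSD17B7 was read by 220081_x_at alone, a design that can also match related transcripts, and RefSeq lists the pseudogenes HSD17B7P1 and HSD17B7P2.

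**Figure D2:**
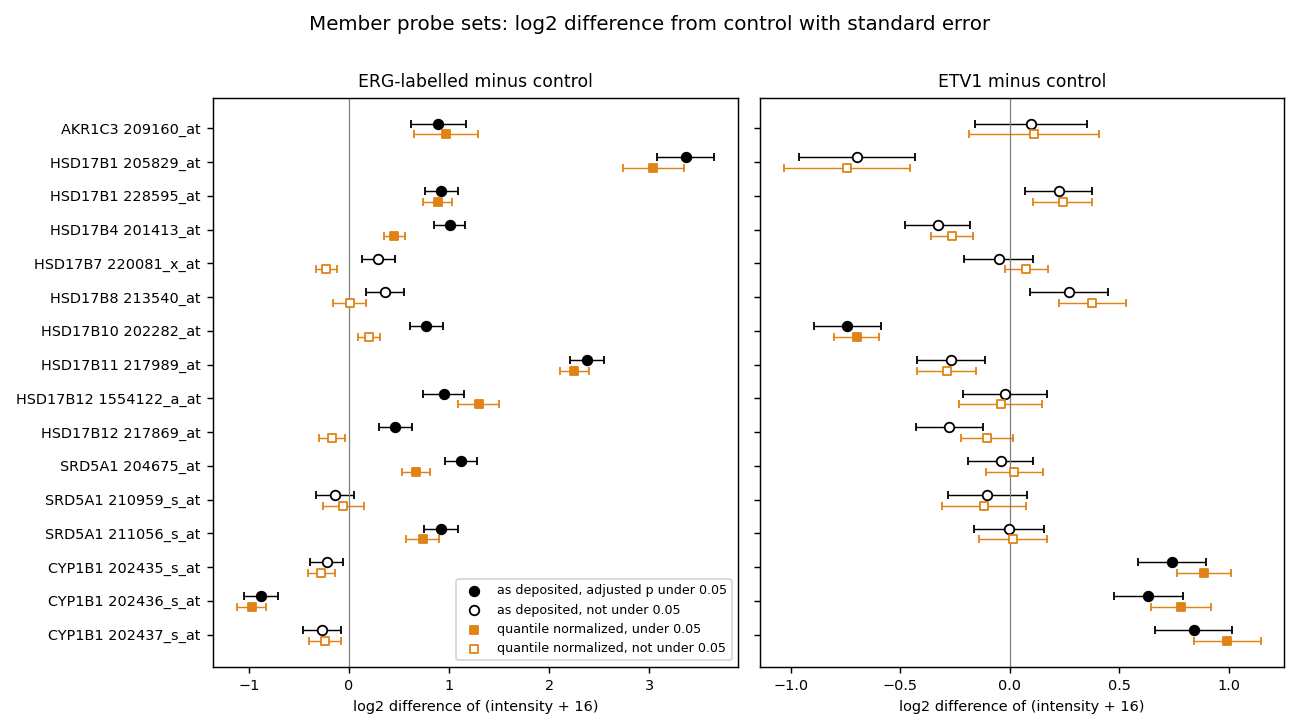
Log2 difference from control (x axis, log2 of intensity + 16) of the 16 tested probe sets, for ERG-labelled cells on the left and ETV1 cells on the right, on separate x scales. Circles are values as deposited and squares are quantile normalized values, bars are standard errors, and filled symbols have an adjusted p under 0.05; on the left, HSD17B10 goes from 0.77 to 0.20 and HSD17B12 217869_at from 0.46 to -0.17 between scalings, while HSD17B11 stays above 2.

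Set directly against each other, the arrays labelled ERG and the ETV1 arrays differed in 13 of the 16 probe sets, 10 higher, HSD17B12 1554122_a_at again among them, and 3 lower on the arrays labelled ERG. The background was 82.1% in either direction, 45.6% higher and 36.5% lower. This comparison tests whether these sets of arrays differ in their differences from the shared control arrays. CYP1B1 was lower on the arrays labelled ERG than in ETV1 cells in all 3 tested probe sets, with log2 differences of -1.51 (SE 0.16), -0.97 (SE 0.15) and -1.11 (SE 0.18), with adjusted p of at most 2.2e-05. HSD17B10 was higher by 1.52 (SE 0.15, adjusted p = 1.2e-07) and, after quantile normalization, by 0.90 (adjusted p = 7.5e-06). AKR1C3 was higher by 0.79 (SE 0.25, adjusted p = 0.0089), with values of 232, 353 and 296 on the arrays labelled ERG overlapping ETV1 replicate D at 311. HSD17B7 and HSD17B8 did not pass as deposited (0.34 and 0.09), though HSD17B7 passed without control replicate A or C (0.34 in each case, adjusted p as low as 0.0099), but after quantile normalization both were lower on the arrays labelled ERG, at -0.30 (adjusted p = 0.012) and -0.37 (adjusted p = 0.039). HSD17B12 with 217869_at was higher as deposited (0.73, adjusted p = 0.00033) and differed by -0.07 after quantile normalization (adjusted p = 0.61).

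Ordered by their means, 9 of the 16 probe sets ran from ERG-labelled through control to ETV1 cells, high to low. In that class the step between control and ETV1 cells passed for HSD17B10 alone. Another 3, of AKR1C3, HSD17B1 (228595_at) and HSD17B8, were highest on the arrays labelled ERG and lowest in control cells, and their ETV1 and control means did not differ beyond the test. The 3 CYP1B1 probe sets ran from ETV1 through control to ERG-labelled cells, and only for 202436_s_at did both steps pass. The last, SRD5A1 210959_s_at, differed at neither step.

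**Figure D3:**
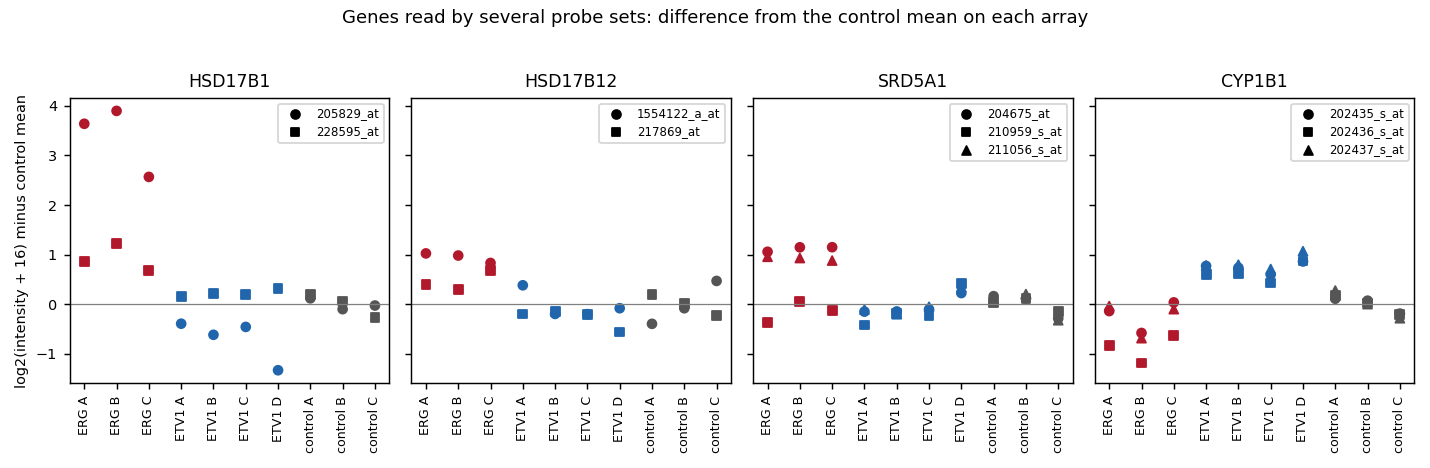
Difference of log2(intensity + 16) from the control mean (y axis) on each array (x axis), for the 4 genes read by more than 1 tested probe set; symbols mark probe sets and colours mark ERG-labelled (red), ETV1 (blue) and control (grey) arrays. The CYP1B1 probe sets all lie above 0 on the ETV1 arrays, while on the arrays labelled ERG 202436_s_at lies below the other 2, HSD17B1 205829_at departs from 228595_at, and SRD5A1 210959_s_at stays near 0 on the arrays labelled ERG where the other 2 rise.

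Promoters are shown for the members with a window in the table that passed in ETV1 cells (HSD17B10) or rose by at least 1 on the log2 scale on the arrays labelled ERG (HSD17B11, HSD17B4 and SRD5A1). CYP1B1, HSD17B1 and HSD17B12 have no window there. The sequences are the 250 bases before the annotated gene start in RefSeq, GRCh38.p14, 5′ to 3′ on the gene's strand. Capitals mark CGGAA, or TTCCG on the other strand, a form of the ETS factor motif. Other forms that hold GGAA, such as AGGAA, were not marked or counted. HSD17B10 lies at chrX:53434377-53434626 (minus strand), HSD17B11 at chr4:87391189-87391438 (minus strand), HSD17B4 at chr5:119452247-119452496 (plus strand) and SRD5A1 at chr5:6633190-6633439 (plus strand).
HSD17B10: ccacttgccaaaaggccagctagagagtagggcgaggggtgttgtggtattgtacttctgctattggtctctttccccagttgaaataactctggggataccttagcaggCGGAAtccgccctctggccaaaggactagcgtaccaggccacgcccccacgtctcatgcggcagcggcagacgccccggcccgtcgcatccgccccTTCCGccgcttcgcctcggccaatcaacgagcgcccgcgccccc
HSD17B11: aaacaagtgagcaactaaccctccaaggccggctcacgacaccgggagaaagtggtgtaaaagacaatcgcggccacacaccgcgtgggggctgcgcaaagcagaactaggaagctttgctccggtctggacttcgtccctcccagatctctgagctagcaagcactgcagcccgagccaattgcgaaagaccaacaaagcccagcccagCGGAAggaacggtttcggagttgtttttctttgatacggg
HSD17B4: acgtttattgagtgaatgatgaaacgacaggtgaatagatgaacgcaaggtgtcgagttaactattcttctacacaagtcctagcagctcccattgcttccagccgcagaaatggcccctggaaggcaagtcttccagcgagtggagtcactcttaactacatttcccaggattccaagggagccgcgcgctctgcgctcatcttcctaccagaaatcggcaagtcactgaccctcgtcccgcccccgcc
SRD5A1: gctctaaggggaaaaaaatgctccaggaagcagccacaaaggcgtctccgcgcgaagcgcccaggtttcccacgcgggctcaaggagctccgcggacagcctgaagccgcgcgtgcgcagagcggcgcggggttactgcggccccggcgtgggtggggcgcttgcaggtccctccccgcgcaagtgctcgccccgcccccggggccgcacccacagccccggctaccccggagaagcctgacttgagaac

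The HSD17B10 window holds 2 matches to CGGAA or TTCCG and the HSD17B11 window 1, while those of HSD17B4 and SRD5A1 hold none of this form. Among 35116 such windows in the table, 30.3% hold at least 1 match. Of the 7 members with a window, HSD17B8 also holds 2, and those of AKR1C3 and HSD17B7 hold none. The longer form CCGGAAGT, or ACTTCCGG on the other strand, contains CGGAA or TTCCG and occurs in 3.42% of windows and in none of the members' windows. A match is a description of these letters and not a binding site.

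Genes that work beside these enzymes were taken from 14 lists with 80 members, each gene read from its brightest probe set. Of the 80, 66 had a single-gene probe set and 47 were tested. In ETV1 cells 3 of the 47 rose and 9 fell, where 8.83% of all tested genes were higher and 15.2% lower, with median log2 differences of -0.05 over the lists and -0.06 over all tested genes. After quantile normalization 7 rose and 11 fell. On the arrays labelled ERG 24 rose and 13 fell, where 47.7% of tested genes were higher and 32.2% lower, and after quantile normalization 17 rose and 15 fell. Set against each other, 24 were higher and 13 lower on the arrays labelled ERG than in ETV1 cells, where 50.4% of tested genes were higher and 33.3% lower, and after quantile normalization 20 were higher and 16 lower. In either direction 24% of tested genes passed for ETV1 versus control, 80% for ERG versus control and 83.6% for ERG versus ETV1.

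In ETV1 cells EBP, an isomerase of late cholesterol synthesis, fell to 1294 ± 140 (n = 4), against 2326 ± 194 (n = 3) in control cells, a log2 fold change of -0.84 (SE 0.13, adjusted p = 3e-04). EBP was also lower on the arrays labelled ERG than on control arrays (-0.69, adjusted p = 0.00035). Between those arrays and ETV1 cells it differed by 0.15 as deposited (adjusted p = 0.32) and by -0.52 after quantile normalization (adjusted p = 0.0013). RDH5, a retinol dehydrogenase that also oxidises steroids, averaged 7.67 ± 5.18 in ETV1 cells and 32.3 ± 10.5 in control cells, below the array median on every array of both groups. It is counted among the 9, but passed the filter only through the arrays labelled ERG, so no fold change is given. ELOVL4, an elongase of very long chain fatty acids, averaged 67.2 ± 4.54 in ETV1 cells and 127 ± 28.5 in control cells. It is counted among the 9, but passed the filter only through the other groups, so no fold change is given. In the same elongation list HACD2, the dehydratase, and TECR, the final reductase, fell (-0.50 each), although the TECR values of ETV1 and control arrays overlapped. Counting ELOVL4, 3 of its 7 tested genes were called lower and none higher, where 15.2% of all tested genes were lower and 8.83% higher. HSD17B12 itself did not pass. The rises were those of TSPO, a mitochondrial outer membrane protein linked to cholesterol import (0.67), ACAA1, the peroxisomal thiolase (0.51), and TIPARP, a target of the aryl hydrocarbon receptor (0.45). Of the other 3 genes of that receptor's list, AHR differed by 0.28 (adjusted p = 0.21), its partner ARNT by 0.30 (adjusted p = 0.097) and the receptor repressor AHRR by -0.07 (adjusted p = 0.76). After quantile normalization AHR (0.41, adjusted p = 0.034) and ARNT (0.30, adjusted p = 0.033) passed. CYP1A1 and CYP1A2, of the cytochrome list, did not pass in ETV1 cells (adjusted p = 0.25 and 0.84). CYP1A1 averaged 58.6 in ETV1 and 47.7 in control cells, below the array median on every array of both groups. On the arrays labelled ERG, CYP1A1 averaged 130 and CYP1A2 differed from control by -1.35. TIPARP rose on those arrays by 0.43 as deposited (adjusted p = 0.016), and it differed by -0.02 between them and ETV1 cells (adjusted p = 0.89). After quantile normalization these differences were -0.14 (adjusted p = 0.30) and -0.77 (adjusted p = 3.7e-05). The peroxisomal enzyme EHHADH (-0.45) and POR, which passes electrons to cytochromes (-0.43), fell. The dehydrogenase DHRS9, also among the 9, averaged 33.6 ± 12.0 in ETV1 cells and 62.8 ± 15.1 in control cells. It too passed the filter only through the other groups and is given without a fold change. No ETV1 array read DHRS9 or ELOVL4 above the array median, against 1 and 3 control arrays. Of the 12 genes that passed, leaving aside RDH5, ELOVL4 and DHRS9, EBP and TRMT10C passed whichever single array was left out. Leaving out control replicate C ended the calls of ACAA1 (0.42) and DHRS9. That of TSPO ended without control replicate C (0.53) and without ETV1 replicate B (0.62). TIPARP lost the call without control replicate B or C or ETV1 replicate A, B or C (0.36 to 0.49). HACD2 and TECR each lost the call without control replicate A or B or ETV1 replicate A, B or C (-0.52 to -0.39 for HACD2, -0.51 to -0.39 for TECR). EHHADH lost it without control replicate A or B or any 1 ETV1 array (-0.53 to -0.30), and POR without control replicate A or B or ETV1 replicate B, C or D (-0.43 to -0.37).

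On the arrays labelled ERG, all 7 tested elongation genes rose as deposited, where 47.7% of all tested genes were higher. After quantile normalization 3 of the 7 rose, where 10334 of all 25969 tested probe sets were higher. ELOVL6, the elongase of palmitate, averaged 1244 ± 132.6 in ERG-labelled cells and 471 ± 75.4 in control cells, a log2 fold change of 1.38 (SE 0.17, adjusted p = 2.2e-06), and ELOVL7 rose by 1.28. The sterol methyl oxidase MSMO1 rose by 1.68 (SE 0.16), EHHADH by 1.54 and the mitochondrial fatty acid synthesis genes CBR4 and MECR by 1.26 each. The AKR1C genes closest to AKR1C3 in sequence also rose, AKR1C2 by 1.27 (SE 0.25) and AKR1C1 by 0.58 (SE 0.18), although both were read by probe sets that can match several transcripts, and AKR1C1 did not pass after quantile normalization (0.15, adjusted p = 0.46). TSPO rose by 1.25 and the cholesterol carrier STARD3 by 0.77. The estrogen sulfotransferase SULT1E1, the sterol reductase TM7SF2, RDH5 and PRORP passed the filter only through the arrays labelled ERG, and their differences of 1.24, 0.79, 1.38 and 0.50 are a description. The RNase P subunit TRMT10C was higher by 0.41 as deposited (adjusted p = 0.020). TRMT10C lost the call without control replicate B (0.41) or C (0.31) or ERG-labelled replicate B (0.29), and after quantile normalization TRMT10C differed by -0.16 (adjusted p = 0.20).

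Of the 13 genes called lower on the arrays labelled ERG, 5 of those named were below the array median on all 3 of these arrays and passed the filter only through the other groups, so their levels are given without a fold. The progesterone receptor PGR averaged 5.75 ± 3.21 on the arrays labelled ERG, against 159 ± 29.7 on the control arrays. CYP3A5 and CYP3A4, cytochromes that inactivate steroids, read between 10.87 and 23.13 and between 19.53 and 40.34 on the arrays labelled ERG, against means of 160 ± 11.8 and 134 ± 7.86 on the control arrays. Their list of cytochromes and electron donors did not move 1 way, with 3 of 7 tested genes higher and 3 lower. Over all tested genes 47.7% were higher and 32.2% lower. In that list FDX1 rose by 1.71 and CYB5A, whose probe set can match several transcripts, by 1.60. After quantile normalization these rises were 1.18 and 1.16. The steroid sulfatase STS averaged 33.3 ± 8.81 in ERG-labelled cells and 182 ± 8.43 in control cells, and HSD11B1, which regenerates cortisol, averaged 38.5 ± 7.67 in ERG-labelled cells and 110 ± 7.93 in control cells. HSD17B14 (-2.48), AHRR (-1.19) and ARNT (-0.65) were lower on the log2 scale, with 1, 2 and 3 of the arrays labelled ERG above the median. The estrogen receptor ESR1 fell by 0.54 as deposited and did not pass after quantile normalization (-0.16, adjusted p = 0.40). On the same arrays the summed fibroblast, endothelial, leukocyte and neuroendocrine markers given above were lower, and the part of that shift in these falls was not tested.

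**Figure D4:**
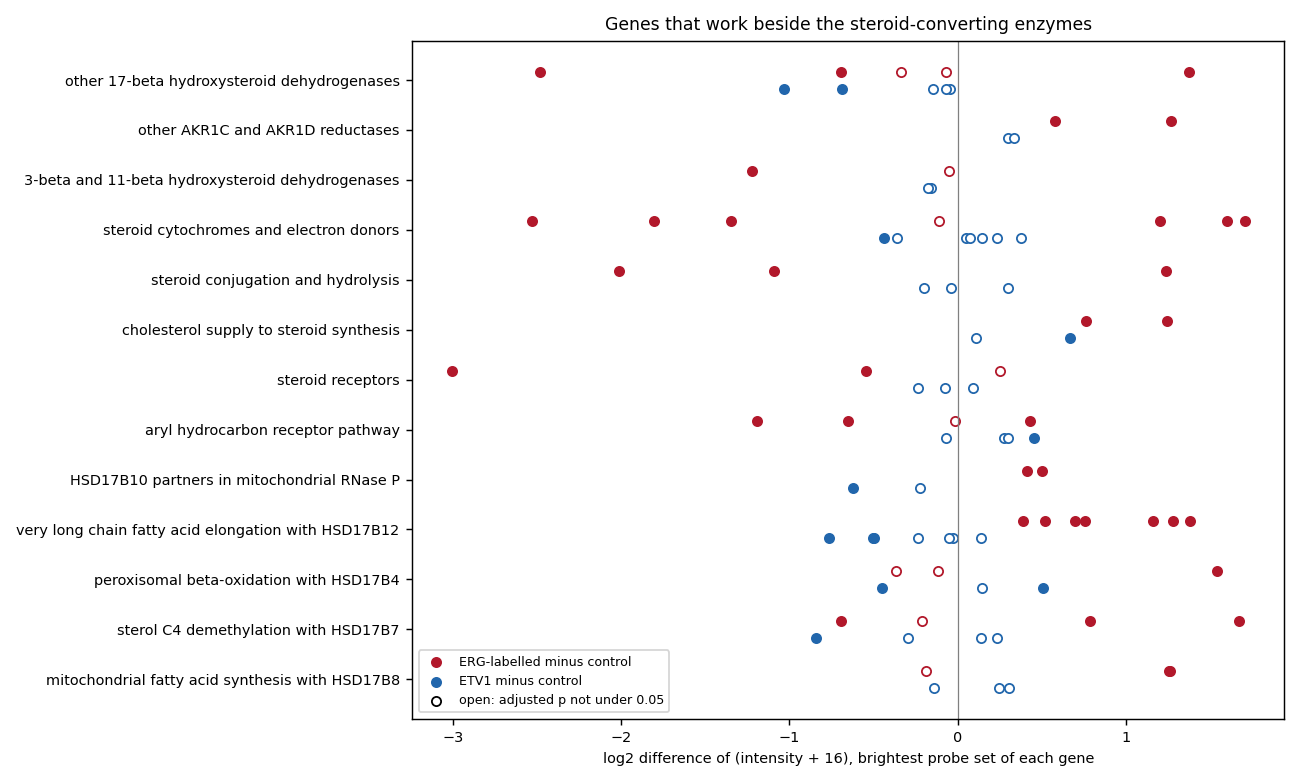
Log2 difference from control (x axis, log2 of intensity + 16) of the 47 tested genes of the lists, 1 row per list with any tested gene, in ERG-labelled (red) and ETV1 (blue) cells. Filled points have an adjusted p under 0.05 and open points do not; as deposited the elongation list lies wholly above 0 on the arrays labelled ERG (TECR and HACD3 turn to -0.19 and -0.10 after quantile normalization), and its 3 filled points in ETV1 cells lie below 0.

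The genes whose deviations from the control mean over the 10 arrays were nearest to those of 3 members were taken as a description. For HSD17B10 these were PSMB3 and MRPL43, with mean absolute differences of 0.048 and 0.055 on the log2 scale. For CYP1B1 (202436_s_at) they were KLHL11 and CALU, at 0.11 and 0.13. For AKR1C3 they were ID2 and UBAC1, at 0.11 and 0.16.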

How the data were processed

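Total RNA was extracted with Trizol, labelled by the Affymetrix biotin protocol and hybridised to HG-U133 Plus 2.0 arrays, per the labels' protocols. The authors deposited 1 linear intensity per probe set and array; how they summarised and normalized the probes is not stated in the sources used here. Values were used as deposited and tested on log2(intensity + 16), which understates fold changes of dim genes. Of 54675 probe sets, 41091 name 1 gene, 1801 several and 11721 none, and 62 are controls; gene IDs of all but 54 of the 41091 matched RefSeq, and no symbol changed. Probe sets above their array's median on at least 3 arrays (25969, for 14116 genes) were fitted with limma (lmFit and eBayes, 3 groups, all 10 arrays), with two-sided p adjusted across them by Benjamini-Hochberg and a threshold of 0.05. Genes of the lists were read from the probe set brightest on average (14069 tested). The number of arrays limits precision.

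The members and lists were chosen with earlier results of these data known. Named genes are all members, every list gene passing for ETV1 versus control, and the 2 largest changes per list among those passing for ERG versus control. In the list of aryl hydrocarbon receptor genes, AHR, ARNT and AHRR were named for ETV1 after their values were seen. CYP1A1, CYP1A2, CYB5A and FDX1 of the cytochrome list were also named after their values were seen, as were ELOVL5 and HACD3 of the elongation list. Same-letter replicates did not deviate together, so the main fit has no block. Alternatives were quantile normalization, no filter, a 75th percentile filter, pseudocounts of 1 and 64, trend and robust variance, only the 2 groups compared, a replicate block, the brightest probe set per gene and leaving out each array. Software was R 4.3.3, limma 3.58.1, Python 3.11.15, pandas 2.3.3 and matplotlib 3.10.9.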

Additional observations from a re-analysis of the deposited data

Results flagged for a closer look

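Among the 20 member probe sets in the 4 ETV1 arrays, 2 had 1 array far from the others, where chance puts about 1 in 20 such groups past Dixon's limit. AKR1C3 read 310.87 in ETV1 replicate D, and 115 to 136 in the other ETV1 arrays, a gap of 0.89 of the range. SRD5A1 with 204675_at read 691.51 in the same replicate, and 530.0 to 548 in the others, also a gap of 0.89 of the range. Replicate D was the highest ETV1 array for 9 of the 16 tested probe sets.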

How the results depend on the processing

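The number of member probe sets called was 4 for ETV1 versus control, 11 for ERG versus control and 13 for ERG versus ETV1. Leaving out each array in turn gave 4 to 5, 9 to 12 and 13 to 14. With the replicate block the counts were again 4, 11 and 13; same-letter arrays correlated at -0.10 to 0.09 in their deviations from the group means, and an array matched its own letter best in 1 of 18 checks. With only the brightest probe set of each gene the counts were 2 of 10 for ETV1 versus control and 8 of 10 for both ERG versus control and ERG versus ETV1, since fewer probe sets were tested. Over all genes tested that way 25.3%, 80.4% and 84.1% passed. After quantile normalization the counts were 4, 9 and 14 of 16, where 31.3%, 75.8% and 80.1% of all tested probe sets passed. For ERG versus ETV1, 9 were then higher and 5 lower. Among the members, quantile normalization reversed HSD17B12 217869_at (-0.17) and HSD17B7 (-0.23) for ERG versus control. Of the list genes passing there as deposited, it reversed HACD3 (-0.10), TECR (-0.19), TIPARP (-0.14) and TRMT10C (-0.16). Of the list genes passing for ERG versus ETV1 as deposited, it reversed ELOVL5 (-0.036), HACD3 (-0.044) and TSPO (-0.21). Members that it reversed for ERG versus ETV1 were HSD17B12 217869_at (-0.068), HSD17B7 (-0.30), HSD17B8 (-0.37) and SRD5A1 210959_s_at (0.060). For ETV1 versus control it reversed, among the members, HSD17B7 (0.077), SRD5A1 204675_at (0.021) and 211056_s_at (0.016). The replicate block reversed AKR1C3 for ETV1 versus control (-0.20) and SRD5A1 210959_s_at for ERG versus ETV1 (0.13). The cause of these reversals was not tested. Among the list genes, the block ended the ETV1 versus control calls of EHHADH, POR and TIPARP, and testing all probe sets with no filter ended those of EHHADH, HACD2, POR, TECR, TIPARP and TSPO. A pseudocount of 1 ended that of TECR and 64 that of EHHADH, and fitting only the 2 groups ended that of TRMT10C for ERG versus control.

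Sign changes when 1 array was left out touched differences that did not pass in the full data. For ETV1 versus control the ranges were -0.20 to 0.24 for AKR1C3, -0.22 to 0.21 for HSD17B12 1554122_a_at, -0.27 to 0.085 for HSD17B7, and for SRD5A1 -0.18 to 0.041 (204675_at), -0.27 to 0.0048 (210959_s_at) and -0.16 to 0.10 (211056_s_at). For ERG versus ETV1 they were -0.031 to 0.31 for HSD17B8 and -0.15 to 0.13 for SRD5A1 210959_s_at.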
